A study of Canis lupus familiaris with 15 samples.

Results

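Versican, hyaluronan and the other proteoglycan genes were described as a set of 55 genes. The set holds the core proteins that carry glycosaminoglycan chains, the proteins that make, bind or cut hyaluronan, and the enzymes that build, sulfate or trim the chains. Members were found by their gene symbol in 3 tables, and 37 of the 55 stood in at least 1 of them, among 7699 symbols listed in all. The remaining 18 members (BCAN, NCAN, HAS1, HYAL1, HYAL2, TNFAIP6, PRELP, ASPN, GPC2, GPC6, XYLT2, UGDH, CHSY1, CHSY3, CHPF, CHST11, HS2ST1 and DSE) stood in none, and their levels are unknown here.

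RNA was sequenced from 15 libraries of cultured canine osteosarcoma cells, 3 in each of 5 groups. D17 and HMPOS cells had been infused into the blood of zebrafish embryos carrying the Tg(fli1a:EGFP) transgene, in which the vessels fluoresce, and clusters that had left the vessels were dissected out and grown into sub-lines. The study compared these extravasation-positive sub-lines of D17 and of HMPOS with their parental lines, and parental HMPOS, a highly metastatic derivative of POS, with parental POS. For the cultured cells themselves the sources used here name no gene change and, beyond a fluorescent label on infused cells, penicillin and streptomycin, which were in the medium of D17 and HMPOS cells and in the buffer that held the dissected sections. The embryos that received them were kept in N-phenylthiourea, which blocks pigment, and were anesthetized with tricaine, so the extravasated groups alone had passed through hosts given these agents. The extravasated groups had passed through injection, life in a fish, bleaching, enzymatic release and regrowth in culture, whereas the parental D17 and HMPOS groups were grown in vitro and were never placed in a fish. Cells that entered a fish without leaving its vessels were not analysed here, so passage through the fish and extravasation cannot be told apart.

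Each table compares a pair of groups and gives each group 1 pooled level in FPKM, fragments scaled for the length of the transcript and for how many fragments were mapped. No level of a single library, no spread between libraries and no depth is known, so no difference is given with an error or a test here. The tables list 4412 genes for D17, 1189 for HMPOS and 5746 for HMPOS against POS, all of which had passed the authors' own test. A gene that is not listed has no level here, and a listed gene had to differ. Ratios are given as log2 of extravasated over parental cells, or of HMPOS over POS. The group called norm in the tables was read as parental and the group called meta as extravasated, because POS, whose libraries are all labelled parental, is called norm too. The sources used here conflict on the direction of the D17 and HMPOS comparisons, so each direction given between extravasated and parental cells holds only under this reading of the names. With the names exchanged every such direction would turn, and the HMPOS group set against POS would be the extravasated one. The norm group of HMPOS appears in 2 tables, and over 907 genes its levels there differed by a median of 0.0936% and at most 0.232%.

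Proteoglycans are proteins with long, charged sugar chains of the chondroitin, dermatan, keratan or heparan sulfate type. Large members such as versican bind hyaluronan, a very long chain without sulfate or core protein, and link proteins lock the pair together into a hydrated coat around the cell. Small leucine-rich members bind collagen fibrils in bone and tendon, while heparan sulfate on syndecans and glypicans holds growth factors at the cell surface.

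Of the 55 members, 18 were listed for D17, 15 for HMPOS and 33 for HMPOS against POS. In D17, 14 of the 18 were higher in extravasated cells, beside 54.2% of all listed genes, and 4 were lower, beside 45.8%. Past a fold of 2, 6 D17 members were higher, beside 18.3% of all listed genes, and 2 were lower, beside 8.50%, which became 5, beside 10.8%, and 3, beside 23.0%, after the median of all listed genes was subtracted. In HMPOS, 11 of 15 members were higher in extravasated cells, beside 67.0% of all listed genes, and 4 were lower, beside 33.0%. Past a fold of 2, 4 HMPOS members were higher, beside 20.5%, and 4 were lower, beside 4.79%. The 4 lower members were VCAN, HAPLN1, HAS2 and CHST15, of which the first 3 code for a hyaluronan-binding core protein, its link protein and a hyaluronan synthase. With 1 FPKM added to both levels, VCAN at -0.92 and CHST15 at -0.63 were no longer past a fold of 2, nor was HAS2 in D17 at -0.79. Between the parental lines, 15 of 33 members were higher in HMPOS than in POS, beside 47.7% of all listed genes, and 18 were lower, beside 52.3%. Past a fold of 2, 7 were higher in HMPOS, beside 8.49%, and 10 were lower, beside 19.1%, but the 7 became 3 with 1 FPKM added. After the table median was subtracted the balance turned to 11 higher, beside 17.5% of all listed genes, and 8 lower, beside 13.2%. At any fold the members leaned the same way as all listed genes in each comparison, whereas past a fold of 2 the HMPOS members were evenly split. After subtraction of the median the HMPOS members past a fold of 2 were 3 higher, beside 6.06%, and 4 lower, beside 30.4%, and the members as a set were not tested.

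The members' median log2 ratio was 0.66 for D17, 0.58 for HMPOS and -0.51 for HMPOS against POS. Over all listed genes the median was 0.39, 0.58 and -0.31. Since the listed genes were selected for differing, their median is not a neutral point, but it shows which members change direction when it is subtracted. In D17 no member changed direction on subtracting it. In HMPOS, EXT2, HAPLN3, HS6ST1 and SDC3 turned from higher to lower, which left 7 higher and 8 lower members in place of 11 and 4. For HMPOS against POS, CD44 alone turned, from lower to higher in HMPOS.

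**Figure D1:**
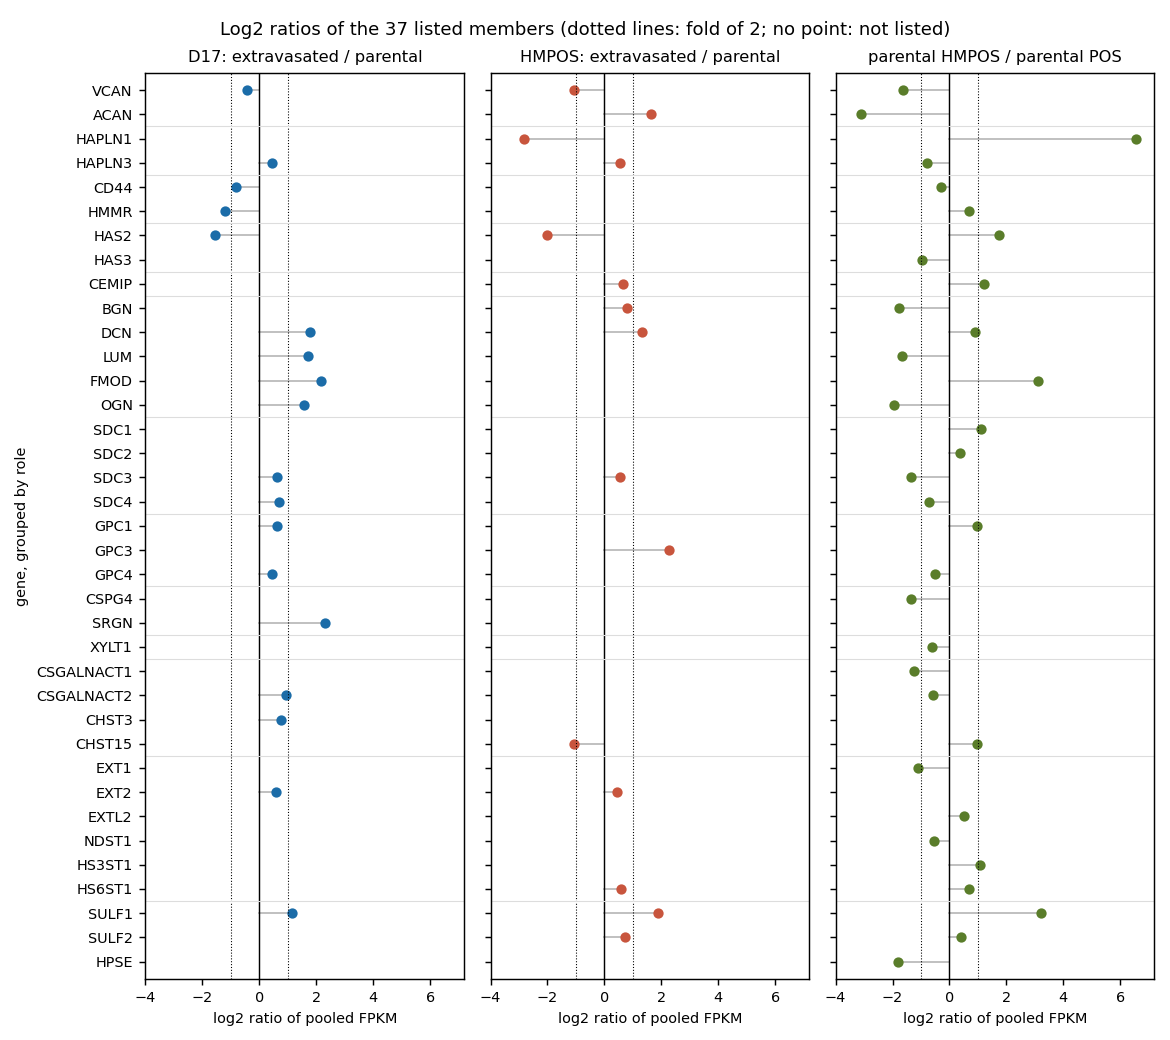
Log2 ratio of pooled FPKM (horizontal axis) for each of the 37 listed members (rows, grouped by role) in the 3 comparisons (panels), where a point is 1 gene and a missing point is a gene not listed. HAPLN1 spans the widest range, from -2.81 in HMPOS to 6.56 in HMPOS against POS, and after subtraction of each panel's median the points of EXT2, HAPLN3, HS6ST1 and SDC3 in HMPOS and of CD44 in HMPOS against POS change side.

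**Figure D2:**
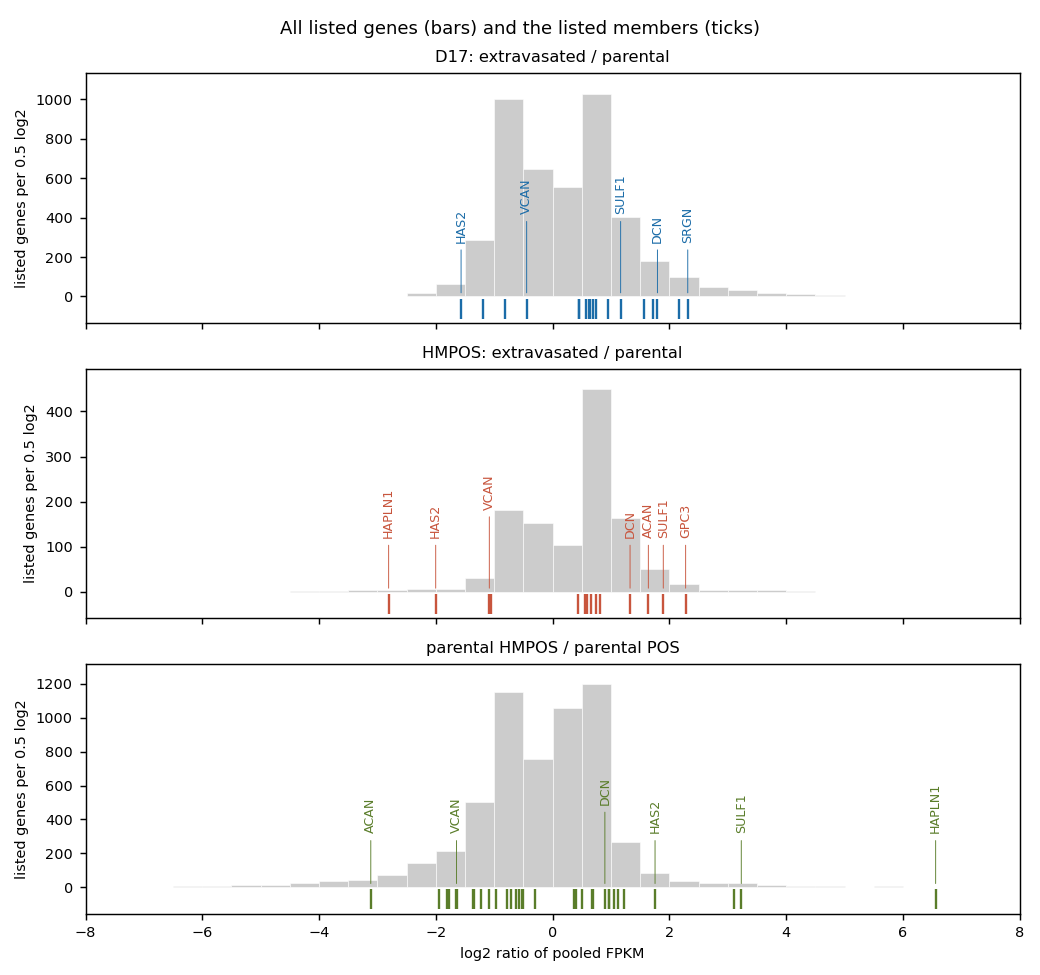
Number of listed genes (vertical axis) in bins of log2 ratio of pooled FPKM (horizontal axis) for the 3 comparisons, with the listed members as colored ticks under the bars. HAS2 at -2.00 and HAPLN1 at -2.81 lie in the sparse lower tail of the HMPOS panel, whereas VCAN in D17, at -0.44, lies inside the bulk of the listed genes, and 1 gene in D17 and 9 in HMPOS against POS lie beyond the axis.

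Versican, coded by VCAN, is a large chondroitin sulfate proteoglycan that binds hyaluronan and loosens the matrix around migrating cells. VCAN stood at 17.01 FPKM after extravasation against 23.2 FPKM in the parental D17 line, a log2 ratio of -0.44. In HMPOS it stood at 3.998 FPKM after extravasation against 8.48 FPKM in the parental line, a log2 ratio of -1.08. Parental POS cells held more VCAN than parental HMPOS cells, at 26.5 against 8.47 FPKM, a log2 ratio of -1.65. VCAN was therefore lower in the group called meta, read as extravasated, than in the group called norm in both lines. With meta and norm exchanged it would be higher in extravasated cells of both lines, with log2 ratios of 0.44 in D17 and 1.08 in HMPOS. In bulk RNA, fewer cells that express a gene and less of its RNA per cell cannot be told apart.

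HAPLN1, the link protein that fastens versican and aggrecan to hyaluronan, showed the largest differences of any member. It stood at 1.66 FPKM after extravasation against 11.6 FPKM in the parental HMPOS line, a log2 ratio of -2.81 that ranked as number 7 from the lowest end of that table. Parental HMPOS cells held 11.6 FPKM against 0.123 FPKM in POS cells, a log2 ratio of 6.56 that ranked as number 6 from the highest end. With 1 FPKM added to both levels this ratio was 3.49, because the POS level lies so close to 0. Parental HMPOS cells thus stood above both other groups, and as both ratios share the parental HMPOS value they are not independent. HAPLN1 was not listed for D17.

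Aggrecan, coded by ACAN, is the main large proteoglycan of cartilage and likewise binds hyaluronan. ACAN was higher in extravasated HMPOS cells, at 9.34 FPKM, than in parental HMPOS cells, at 3.00 FPKM, a log2 ratio of 1.64. In POS cells it reached 25.9 FPKM, and the log2 ratio of HMPOS over POS was -3.11. ACAN and VCAN thus differed in opposite directions between extravasated and parental HMPOS cells, while both were lower in parental HMPOS than in POS cells. Summed over the pair, the level was 13.3 FPKM after extravasation against 11.5 FPKM in the parental HMPOS line, with ACAN the larger in the former and VCAN in the latter. HAPLN3, a second link protein, was the most abundant of the listed core and link proteins of this class in HMPOS. Its level was 79.5 FPKM after extravasation against 54.2 FPKM in the parental HMPOS line, and the log2 ratio of 0.55 became -0.03 after the table median was subtracted. In D17 it stood at 6.93 against 5.04 FPKM, a log2 ratio of 0.46. HAPLN3 was lower in parental HMPOS cells, at 54.2 FPKM, than in POS cells, at 93.6 FPKM, a log2 ratio of -0.79.

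**Figure D3:**
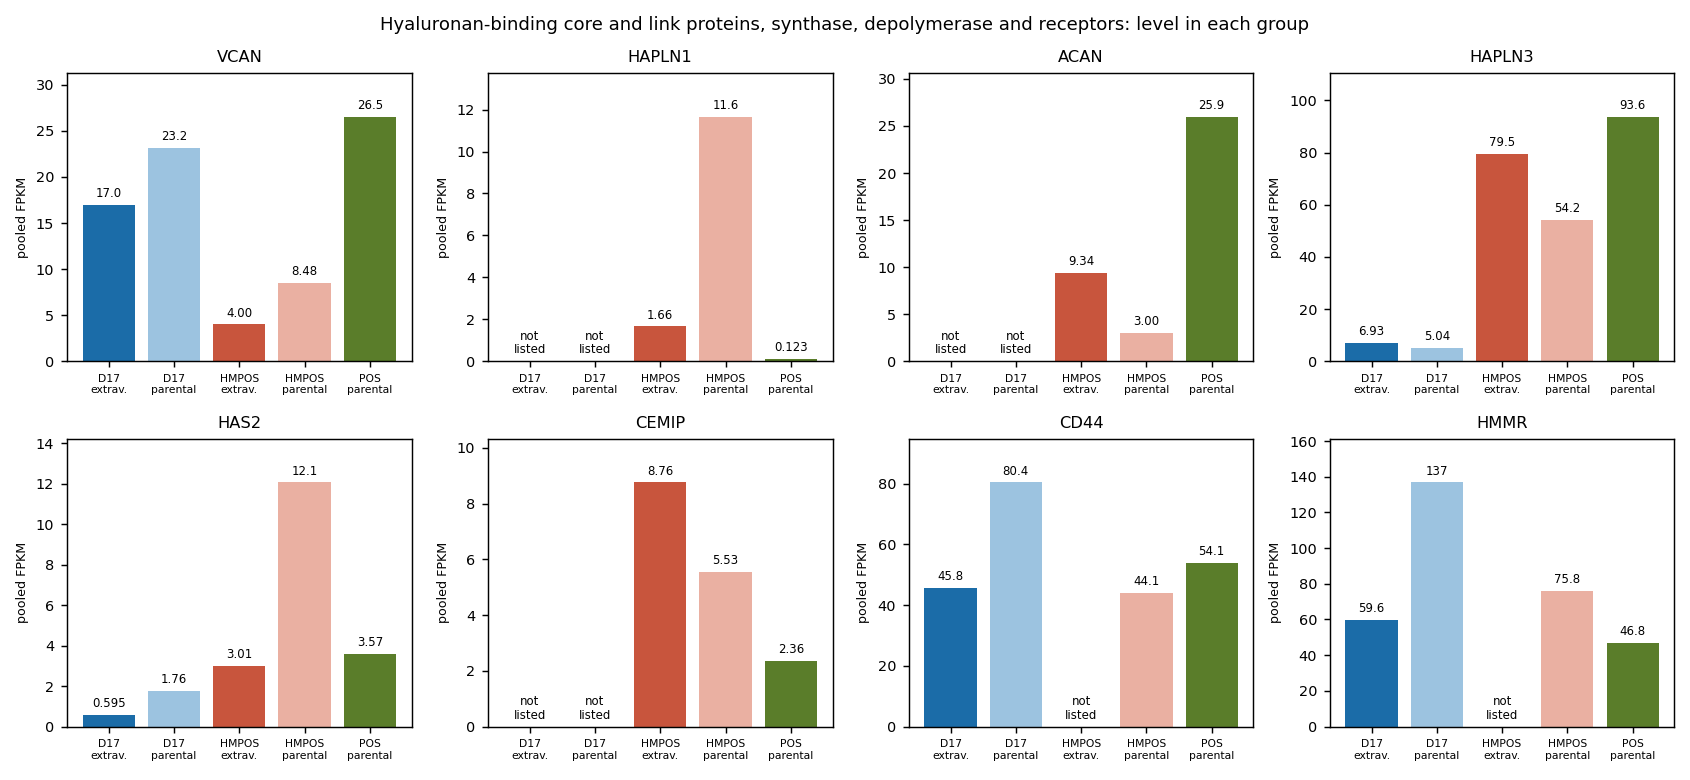
Pooled FPKM (vertical axis, separate scale for each gene) of 8 members in POS cells and in the extravasated and parental groups of D17 and HMPOS, 1 bar a group with no error known. HAPLN1 is tallest in parental HMPOS cells at 11.6 FPKM, and HAS2 in the same group at 12.1 FPKM, while VCAN and ACAN are tallest in POS cells, and the directions of HAPLN3 in HMPOS and of CD44 in HMPOS against POS turn when the table median is subtracted.

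VCAN and HAPLN1 lie side by side on the dog genome. In build CanFam3.1 the tables place VCAN (ENSCAFG00000008582) at chr3:24127133-24239146 and HAPLN1 (ENSCAFG00000029131) at chr3:23999218-24103330, a gap of 23.8 kb, and do not state whether the first position counts from 0 or 1. The next listed gene on the HAPLN1 side was EDIL3, which codes for a secreted integrin ligand, at a distance of 191 kb. EDIL3 differed in the same directions as HAPLN1, at 4.81 FPKM after extravasation against 29.1 FPKM in the parental HMPOS line, a log2 ratio of -2.60. In the parental comparison EDIL3 stood at 29.0 FPKM in HMPOS against 1.11 FPKM in POS cells, a log2 ratio of 4.71. VCAN did not follow this pattern between the parental lines, since it was lower in HMPOS while its neighbors HAPLN1 and EDIL3 were higher.

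On the other side of VCAN, within 2 Mb, the listed genes were a mixture of directions. Between the parental lines XRCC4, a DNA repair factor, had a log2 ratio of 0.87, TMEM167A one of -0.93, SSBP2 one of -0.59 and ACOT12 one of 0.74. In HMPOS, SSBP2 alone was listed there, with a log2 ratio of -0.92. In D17 the genes there were ATP6AP1L, with a log2 ratio of -1.71, SSBP2, with 0.44, and ACOT12, with 0.80. The lower level of VCAN in extravasated D17 cells was thus accompanied by both higher and lower genes within 2 Mb.

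**Figure D4:**
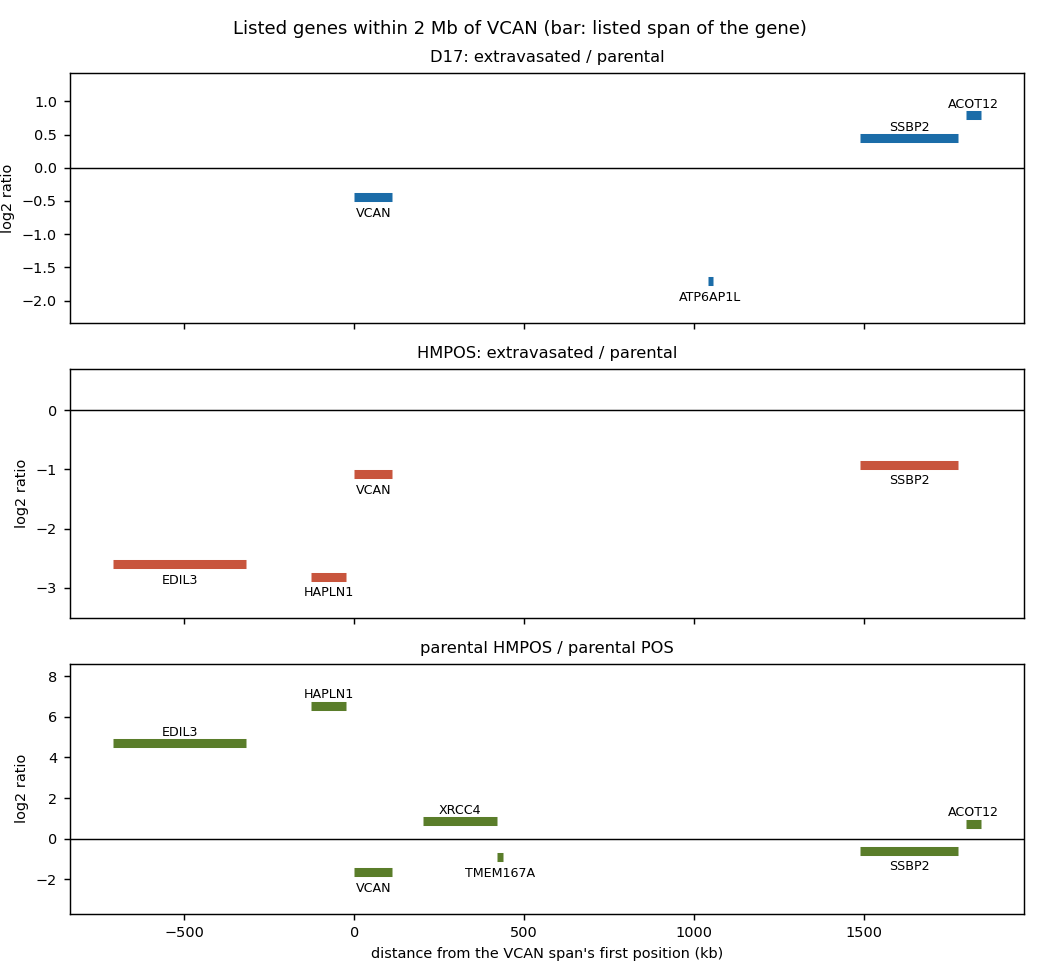
Log2 ratio of pooled FPKM (vertical axis) of each listed gene within 2 Mb of VCAN against the distance of its span from the first position of VCAN in kb (horizontal axis), with 1 panel for each comparison and 1 bar for each gene. EDIL3 and HAPLN1 lie together at -2.60 and -2.81 in HMPOS and at 4.71 and 6.56 in HMPOS against POS, whereas VCAN lies below 0 in all 3 panels.

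A second pair of a core and a link protein gene, ACAN and HAPLN3, lies on the same chromosome with a gap of 1.68 kb. Both genes of this pair were higher in extravasated than in parental HMPOS cells before the median was subtracted, and only ACAN after it. Both were lower in parental HMPOS than in POS cells, as was the next listed gene, MFGE8, a secreted adhesion protein gene 12.6 kb from HAPLN3, at 213 against 542 FPKM. Next to the pair in D17, ISG20 at 162 kb had a log2 ratio of 3.05 and ABHD2 at 109 kb one of -0.79, beside 0.46 for HAPLN3. Farther out within 1 Mb, ANPEP at 722 kb had a log2 ratio of -0.44 in HMPOS, and DET1 at 236 kb had one of 0.34 for HMPOS against POS, in each case opposite to ACAN and HAPLN3 before centring.

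Hyaluronan is made at the cell membrane by synthases, of which HAS2 is the main one in many mesenchymal cells. HAS2 stood at 0.595 FPKM after extravasation against 1.76 FPKM in the parental D17 line, a log2 ratio of -1.57. In HMPOS it stood at 3.01 FPKM after extravasation against 12.1 FPKM in the parental line, a log2 ratio of -2.00 that ranked as number 17 from the lowest end of the table. Parental HMPOS cells held more HAS2 than POS cells, at 12.05 against 3.57 FPKM, a log2 ratio of 1.75. HAS2 was thus lower in the extravasated group of both lines, and over the HMPOS and POS groups it was highest in parental HMPOS cells, as HAPLN1 was. HAS3, a synthase that makes shorter chains, was listed only between the parental lines, at 0.604 FPKM in HMPOS against 1.19 FPKM in POS cells, a log2 ratio of -0.97. CEMIP, which takes part in hyaluronan breakdown, was higher in extravasated HMPOS cells, at 8.76 against 5.53 FPKM, and its log2 ratio of 0.66 became 0.08 after the table median was subtracted. It was also higher in parental HMPOS than in POS cells, at 5.53 against 2.36 FPKM, a log2 ratio of 1.23. The hyaluronidases HYAL1 and HYAL2 and the hyaluronan crosslinker TNFAIP6 were not listed in any table.

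CD44 is the main cell surface receptor for hyaluronan. It stood at 45.8 FPKM after extravasation against 80.4 FPKM in the parental D17 line, a log2 ratio of -0.81. In the parental comparison it stood at 44.1 FPKM in HMPOS against 54.1 FPKM in POS cells, and the log2 ratio of -0.29 became 0.01 after the table median was subtracted. HMMR binds hyaluronan but also acts on the mitotic spindle, and its RNA is high in dividing cells. HMMR stood at 59.6 FPKM after extravasation against 137 FPKM in the parental D17 line, a log2 ratio of -1.20. It was higher in parental HMPOS, at 75.8 against 46.8 FPKM in POS cells, a log2 ratio of 0.69.

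HMMR was read beside 14 genes of cell division. In D17, 11 of the 14 were listed and all 11 were lower in extravasated cells, beside 45.8% of all listed genes, 8 of them past a fold of 2, beside 8.50%, with a median log2 ratio of -1.15. Their summed level was 539 FPKM after extravasation against 1162 FPKM in the parental D17 line, with CDK1 the most abundant in the former and TPX2 in the latter. TOP2A and CCNA2 had the lowest log2 ratios among them, -1.44 and -1.42, and BUB1, KIF11, AURKA, PLK1, TPX2 and AURKB were the others past a fold of 2. After the D17 table median was subtracted, all 11 were lower past a fold of 2, beside 23.0% of all listed genes. For HMPOS against POS, 11 of the 14 were listed and all were higher in HMPOS, beside 47.7% of all listed genes, CCNA2 and AURKA past a fold of 2, beside 8.49%, or 7 genes after the table median was subtracted, beside 17.5%, with a median log2 ratio of 0.74 and sums of 1574 and 909 FPKM, led by CDK1. In HMPOS, where HMMR was not listed, CCNB2 and CDK1 were the only listed genes of the 14. Both were lower, beside 33.0% of all listed genes, with log2 ratios of -0.39 and -0.44. Their sums were 324 FPKM after extravasation against 436 FPKM in the parental line. After the table median was subtracted, CDK1 passed a fold of 2 at -1.03, beside 30.4% of all listed genes. MKI67, CCNB1 and CENPF were listed in none of the tables. HMMR thus differed in the direction of the division genes wherever it was listed, and their part in the lower HMMR, CD44, HAS2 and VCAN levels of extravasated D17 cells was not tested.

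The small leucine-rich proteoglycans bind collagen and shape its fibrils, and decorin (DCN), biglycan (BGN), lumican (LUM), fibromodulin (FMOD) and osteoglycin (OGN) were the listed ones. In D17, 4 of the 7 members of this class were listed, and all 4 were higher in extravasated cells, beside 54.2% of all listed genes, each past a fold of 2, beside 18.3%. DCN stood at 544 FPKM after extravasation against 157 FPKM in the parental D17 line, a log2 ratio of 1.79, and was the most abundant member in both groups. LUM stood at 157 against 47.6 FPKM, a log2 ratio of 1.72. FMOD stood at 2.27 against 0.507 FPKM, a log2 ratio of 2.16. The last of the 4, OGN, stood at 11.7 against 3.93 FPKM, a log2 ratio of 1.57. The span listed for OGN is also that of CENPP in D17 and of OMD in HMPOS against POS, so reads of OGN could have been shared with these genes and its levels are uncertain. CENPP, a centromere protein gene, stood at 14.3 FPKM after extravasation against 24.7 FPKM in the parental D17 line, the opposite direction to OGN. Summed over the 4 members the level was 715 FPKM after extravasation against 209 FPKM in the parental D17 line, and DCN made up most of both sums.

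In HMPOS only BGN and DCN of this class were listed, and both were higher in extravasated cells, beside 67.0% of all listed genes. BGN stood at 287 FPKM after extravasation against 164 FPKM in the parental HMPOS line, a log2 ratio of 0.81. DCN stood at 11.7 against 4.69 FPKM, a log2 ratio of 1.33. DCN was therefore higher in the extravasated group of both lines, while its level in either HMPOS group was far below that in either D17 group, as far as separately normalized tables can be set side by side. BGN rather than DCN was the most abundant member listed for HMPOS.

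Between the parental lines the class was split. OGN, the most abundant member in both groups, stood at 238 FPKM in HMPOS against 919 FPKM in POS cells, a log2 ratio of -1.95. BGN stood at 164 against 559 FPKM, a log2 ratio of -1.77. LUM stood at 52.0 against 163 FPKM, a log2 ratio of -1.65. These abundant members were all lower in HMPOS than in POS cells, whereas the scarcer DCN and FMOD were higher. DCN stood at 4.68 FPKM in HMPOS against 2.52 FPKM in POS cells, a log2 ratio of 0.89. FMOD stood at 0.823 against 0.0961 FPKM, a log2 ratio of 3.098 that rests on levels below 1 FPKM in both groups. The class summed to 459.6 FPKM in HMPOS and 1644 FPKM in POS cells. OGN, whose levels are uncertain, was the largest part of both sums. OMD, which is outside the members and has the same listed span, ran the other way at 1066 against 431 FPKM. LUM and DCN are neighbors on chromosome 15 with a gap of 33.3 kb, and they differed in the same direction in D17 but in opposite directions between the parental lines. The next listed gene within 1 Mb of that pair was BTG1, at 770.1 kb, with a log2 ratio of 0.76 in D17 and -0.54 in HMPOS against POS.

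**Figure D5:**
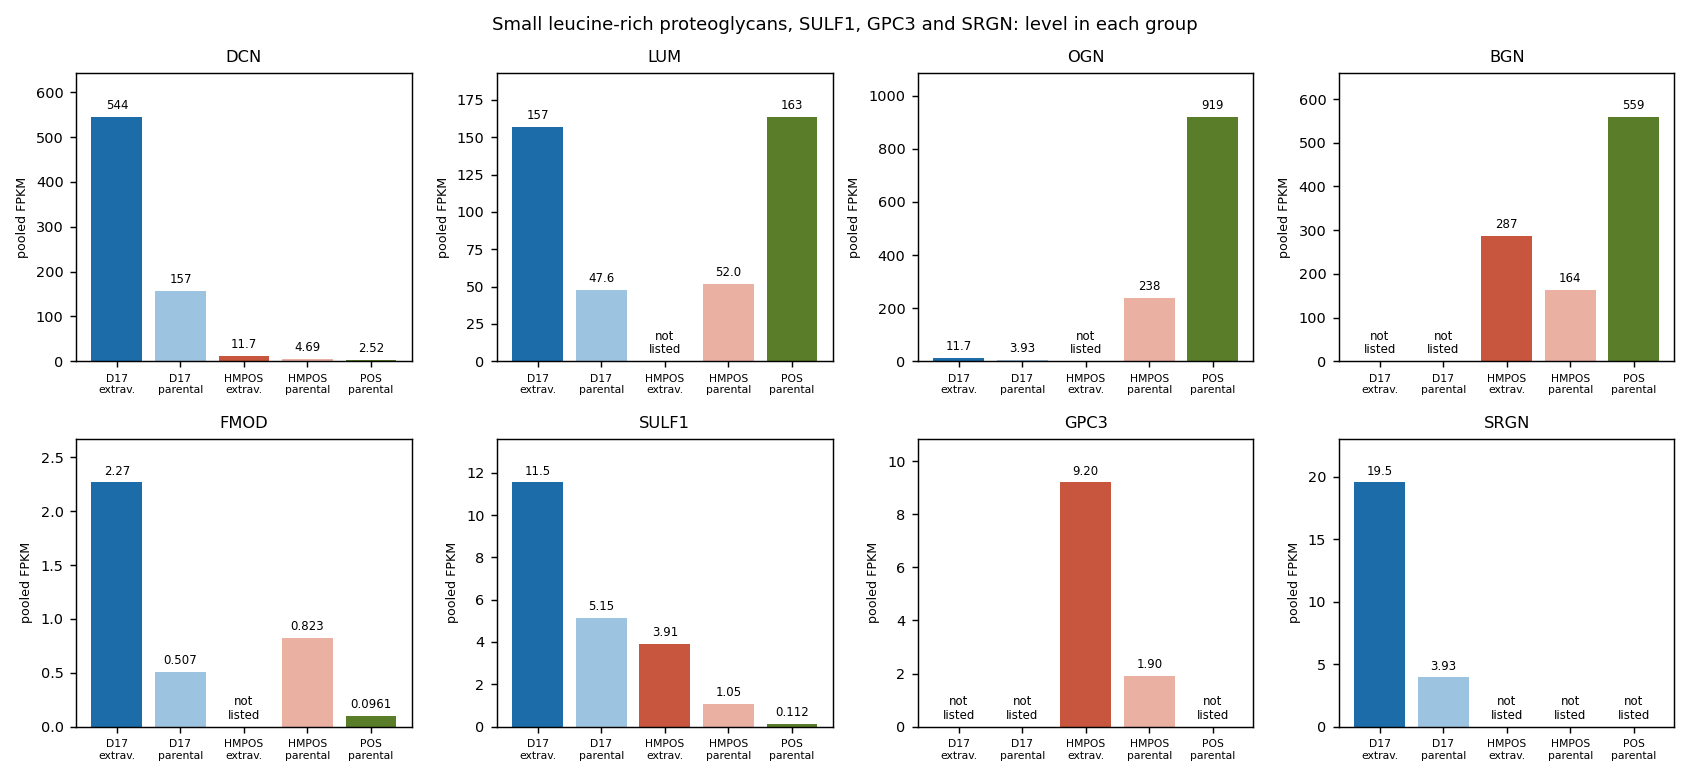
Pooled FPKM (vertical axis, separate scale for each gene) of 8 members in the same 5 groups, 1 bar a group with no error known, where DCN, LUM, OGN, BGN and FMOD are small leucine-rich proteoglycans. DCN reaches 544 FPKM in extravasated D17 cells, OGN and BGN are tallest in POS cells at 919 and 559 FPKM, and SULF1 is higher in the extravasated than in the parental group of D17 and of HMPOS.

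Syndecans span the cell membrane and carry heparan sulfate near cell contacts. All 4 were listed between the parental lines, and SDC1 and SDC2 were higher in HMPOS while SDC3 and SDC4 were lower. SDC1 stood at 70.6 FPKM in HMPOS against 32.6 FPKM in POS cells, a log2 ratio of 1.12. SDC2 stood at 35.3 against 27.3 FPKM, a log2 ratio of 0.37. SDC3 stood at 2.21 against 5.70 FPKM and SDC4 at 27.6 against 45.5 FPKM, with log2 ratios of -1.37 and -0.72. The most abundant syndecan was thus SDC1 in HMPOS and SDC4 in POS cells. In D17, SDC3 was higher in extravasated cells, at 7.75 against 5.06 FPKM, a log2 ratio of 0.62. SDC4 was higher there too, at 43.2 against 26.7 FPKM, a log2 ratio of 0.69. In HMPOS only SDC3 was listed, at 3.27 FPKM after extravasation against 2.22 FPKM in the parental line, and its log2 ratio of 0.56 became -0.02 after the table median was subtracted.

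Glypicans are anchored to the membrane by a lipid and modulate growth factor and morphogen signals. GPC3 was listed only in HMPOS, at 9.20 FPKM after extravasation against 1.90 FPKM in the parental line, a log2 ratio of 2.28 that was the highest of any member in that table. GPC1 stood at 18.5 FPKM after extravasation against 11.9 FPKM in the parental D17 line, a log2 ratio of 0.63. In the other lines, from a separately normalized table, GPC1 was far more abundant, at 229 FPKM in HMPOS against 117 FPKM in POS cells, a log2 ratio of 0.97. GPC4 stood at 64.9 against 47.4 FPKM in D17, a log2 ratio of 0.45. GPC4 was lower in parental HMPOS than in POS cells, at 77.1 against 110.1 FPKM, a log2 ratio of -0.51. GPC4 and GPC3 lie 97.9 kb apart on chromosome X, but no table listed both. The nearest listed gene to them was CCDC160, 189 kb from GPC3, with log2 ratios of 1.56 in D17 and 1.13 in HMPOS against POS. HS6ST2, a heparan sulfate sulfotransferase gene 282 kb from GPC4 on the other side, had log2 ratios of 2.31 and 0.79 there. For HMPOS the nearest was FAM122B, 643 kb from GPC3, with a log2 ratio of -0.65 beside the 2.28 of GPC3.

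SRGN codes for serglycin, a small core protein stored in secretory granules and best known from blood cells and endothelium. It was listed only in D17, at 19.5 FPKM after extravasation against 3.93 FPKM in the parental line, a log2 ratio of 2.31 that was the highest of any member in that table. No gene of the leukocyte list or of the endothelium list was listed beside it in D17, so their levels there are unknown. CSPG4, a membrane-spanning chondroitin sulfate proteoglycan of progenitor and tumor cells, was listed only between the parental lines. It stood at 7.64 FPKM in HMPOS against 19.4 FPKM in POS cells, a log2 ratio of -1.34.

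Chain building starts with xylose on the core protein, which XYLT1 adds. XYLT1 stood at 1.21 FPKM in HMPOS against 1.86 FPKM in POS cells, a log2 ratio of -0.63, and was listed in no other comparison. The first sugar of a chondroitin chain is added by CSGALNACT1 and CSGALNACT2. CSGALNACT1 stood at 1.90 FPKM in HMPOS against 4.45 FPKM in POS cells, a log2 ratio of -1.23. CSGALNACT2 stood at 18.2 against 27.1 FPKM, a log2 ratio of -0.58. In D17 it was higher in extravasated cells, at 13.6 against 7.10 FPKM, a log2 ratio of 0.94. XYLT1, CSGALNACT1 and CSGALNACT2 were therefore all lower in parental HMPOS than in POS cells.

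Sulfate is placed on chondroitin by CHST3, which acts on galactosamine, and by CHST15, which adds a further sulfate to make a highly charged form. CHST3 was listed only in D17, at 5.82 FPKM after extravasation against 3.47 FPKM in the parental line, a log2 ratio of 0.75. CHST15 stood at 1.05 FPKM after extravasation against 2.17 FPKM in the parental HMPOS line, a log2 ratio of -1.05. In the parental comparison CHST15 stood at 2.17 FPKM in HMPOS against 1.11 FPKM in POS cells, a log2 ratio of 0.96. CHST15 was thus another member with its highest level in parental HMPOS cells, like HAPLN1 and HAS2, though at a few FPKM only. The polymerizing enzymes CHSY1, CHSY3 and CHPF, the sulfotransferase CHST11 and the epimerase DSE were not listed in any table.

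Heparan sulfate chains are extended by a complex of EXT1 and EXT2. EXT1 stood at 38.4 FPKM in HMPOS against 82.2 FPKM in POS cells, a log2 ratio of -1.10. EXT2 was higher in extravasated D17 cells, at 40.0 against 27.0 FPKM, a log2 ratio of 0.57. In HMPOS EXT2 stood at 84.5 FPKM after extravasation against 62.5 FPKM in the parental line, and its log2 ratio of 0.44 became -0.15 after the table median was subtracted. No table listed both partners of the complex. EXTL2, a relative that can end a chain early, stood at 35.0 FPKM in HMPOS against 24.7 FPKM in POS cells, a log2 ratio of 0.50. NDST1, which exchanges acetyl groups for sulfate at the start of chain modification, stood at 7.41 against 10.7 FPKM, a log2 ratio of -0.53.

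HS6ST1, which sulfates the glucosamine of heparan sulfate, stood at 47.7 FPKM in HMPOS against 29.8 FPKM in POS cells, a log2 ratio of 0.68. HS3ST1, which makes the rare site that binds antithrombin, stood at 0.969 against 0.465 FPKM, a log2 ratio of 1.06 at levels below 1 FPKM. In HMPOS, HS6ST1 stood at 71.5 FPKM after extravasation against 47.8 FPKM in the parental line, and its log2 ratio of 0.58 became -0.003 after the table median was subtracted.

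SULF1 and SULF2 are secreted enzymes that remove sulfate from finished heparan sulfate and so change which growth factors it holds. SULF1 stood at 11.5 FPKM after extravasation against 5.15 FPKM in the parental D17 line, a log2 ratio of 1.16. In HMPOS it stood at 3.91 FPKM after extravasation against 1.05 FPKM in the parental line, a log2 ratio of 1.89. In the parental comparison its level was 1.05 FPKM in HMPOS against 0.112 FPKM in POS cells, a log2 ratio of 3.23. SULF1 was higher in the first group of each comparison and past a fold of 2 each time, but within it in D17 after the table median was subtracted, at 0.78, and in HMPOS against POS with 1 FPKM added, at 0.88. Parental HMPOS cells stood between extravasated HMPOS and POS cells. SULF2 was the more abundant of the pair where both were listed, at 45.6 FPKM after extravasation against 27.3 FPKM in the parental HMPOS line, a log2 ratio of 0.74. In the parental comparison SULF2 stood at 27.3 FPKM in HMPOS against 20.7 FPKM in POS cells, a log2 ratio of 0.40. HPSE, the heparanase that cuts heparan sulfate chains, was lower in HMPOS than in POS cells, at 1.59 against 5.54 FPKM, a log2 ratio of -1.80.

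The D17 and HMPOS comparisons share no library, and 7 members were listed in both. VCAN and HAS2 were lower in extravasated cells of both lines, and HAPLN3, DCN, SDC3, EXT2 and SULF1 were higher in both. All 7 members thus had the same direction in the pair of lines, beside 535 of the 614 genes listed in both tables, or 87.1%. Of those 614 genes, 382 were higher and 153 lower in both lines, so agreement of direction was common among all listed genes. After each table's median was subtracted, HAPLN3, SDC3 and EXT2 were higher in D17 but lower in HMPOS, which left 4 of the 7 members with the same direction, beside 434 of the 614 genes, or 70.7%. Past a fold of 2 in both lines were HAS2, which was lower, and DCN and SULF1, which were higher, beside 1 lower and 80 higher of the 614 genes. Of these HAS2 alone was past a fold of 2 in both lines after the subtraction, beside 92 lower and 19 higher of the 614, since DCN came to 0.74 in HMPOS and SULF1 to 0.78 in D17. With 1 FPKM added HAS2 was within a fold of 2 in D17. All of these 7 but EXT2 were also listed for HMPOS against POS, which made 6 members listed in all 3 tables.

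Beyond the members, 127 other genes of the same pathways were read as lists, and 59 of them stood in at least 1 table. In D17, 36 were listed with a median log2 ratio of 0.76, and 29 of them were higher in extravasated cells, beside 54.2% of all listed genes, and 7 lower, beside 45.8%. Past a fold of 2, 11 were higher, beside 18.3%, and 1 lower, beside 8.50%, which became 6, beside 10.8%, and 3, beside 23.0%, after the table median was subtracted. In HMPOS, 11 were listed with a median of 0.65, and 10 of them were higher, beside 67.0%, and 1 lower, beside 33.0%, but 4 of the 10 turned lower on subtracting the table median. Past a fold of 2, 2 were higher there, beside 20.5%, and 1 lower, beside 4.79%, which became 0, beside 6.06%, and 1, beside 30.4%, after the subtraction. For HMPOS against POS, 45 were listed with a median of 0.38, and 24 were higher in HMPOS, beside 47.7%, and 21 lower, beside 52.3%. There 6 were higher past a fold of 2, beside 8.49%, and 11 lower, beside 19.1%, which became 9, beside 17.5%, and 7, beside 13.2%, after the subtraction.

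Among further small leucine-rich proteoglycans, PODN stood at 17.4 FPKM after extravasation against 1.84 FPKM in the parental D17 line, a log2 ratio of 3.23, in the direction of DCN and LUM. PODN was lower in HMPOS than in POS cells, with a log2 ratio of -2.79. OMD, which shares its listed span with OGN, stood at 1066 FPKM in HMPOS against 431 FPKM in POS cells, a log2 ratio of 1.31, opposite to that of OGN, and it exceeded every listed member in HMPOS. HAPLN4, a further link protein, was higher in HMPOS than in POS cells, with a log2 ratio of 1.74. TMEM2, a cell surface protein that takes part in hyaluronan breakdown, had log2 ratios of 0.42 in D17 and 0.52 between the parental lines.

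Of the other core proteins, TGFBR3, a part-time proteoglycan and coreceptor, had log2 ratios of 1.59 in D17 and -1.04 between the parental lines. The latter became -0.73 after the table median was subtracted. SMOC1 had log2 ratios of 1.75 in D17, 0.56 in HMPOS, which became -0.02 after the table median was subtracted, and 1.94 between the parental lines. SPOCK1 had a log2 ratio of -1.45 in D17, at levels below 1 FPKM. Between the parental lines the basement membrane genes COL18A1 and AGRN had log2 ratios of -2.02 and -1.52, while PTPRZ1, a receptor phosphatase that carries chondroitin sulfate, had one of 4.21. ADAMTS9, a protease that cuts versican, stood at 5.24 FPKM after extravasation against 1.80 FPKM in the parental D17 line, a log2 ratio of 1.54. VCAN RNA was lower in the same extravasated cells, and a link between these levels was not tested. ADAMTS9 was lower in HMPOS than in POS cells, with a log2 ratio of -1.01, at levels below 1 FPKM, which became -0.70 after the table median was subtracted.

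Among other chain enzymes, HS6ST2, a relative of HS6ST1, stood at 13.3 FPKM after extravasation against 2.68 FPKM in the parental D17 line, a log2 ratio of 2.31. In HMPOS, EXTL1 had a log2 ratio of 1.08 and HS3ST2 one of -1.47. NDST3 had a log2 ratio of -1.64 between the parental lines. Of keratan sulfate enzymes, B4GALT1 had a log2 ratio of 1.07 in D17, and between the parental lines CHST2 had one of 1.10 and CHST1 one of -1.24. PAPSS2, which makes the sulfate donor, had a log2 ratio of 1.25 in D17, and IMPAD1, which clears its by-product, one of 1.42 between the parental lines. GFPT2, which feeds amino sugar synthesis, had log2 ratios of 1.20 in HMPOS and -1.84 between the parental lines. After the table medians were subtracted, B4GALT1 came to 0.69 and PAPSS2 to 0.86 in D17. EXTL1 likewise came to 0.49 and GFPT2 to 0.61 in HMPOS, and CHST1 to -0.93 between the parental lines. All of these were then within a fold of 2. No linker enzyme outside the members passed a fold of 2, and the largest ratio was that of B4GALT7 in D17, at 0.89. The same held for the further chondroitin and dermatan enzymes, where DSEL had the largest ratio, 0.82 between the parental lines at levels below 1 FPKM, though it passed a fold of 2 at 1.13 after the table median was subtracted.

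Markers of cell types were set beside these levels. Of 13 osteoblast lineage genes, 6 were listed in D17, 6 in HMPOS and 8 between the parental lines, and RUNX2 and DMP1 were in none. In D17, 5 of the 6 were higher in extravasated cells, beside 54.2% of all listed genes, and the sums were 2219.7 FPKM after extravasation against 915 FPKM in the parental line. COL1A2, a fibrillar collagen that decorin binds, led both sums at 1359.7 and 493 FPKM, and SPP1, SPARC and PHEX were also past a fold of 2, beside 18.3%, with log2 ratios of 2.76, 1.21 and 1.62, of which that of SPARC became 0.83 after the table median was subtracted. In HMPOS, 5 of the 6 were higher, beside 67.0%, and the sums were 3125 FPKM after extravasation against 1923 FPKM in the parental line, led by SPARC, while PHEX had a log2 ratio of 1.88 and IBSP one of -2.26. After the table median was subtracted, COL1A1 turned lower, which left 4 of the 6 higher. For HMPOS against POS, 6 of the 8 were lower in HMPOS, beside 52.3%, with sums of 2013 and 5481 FPKM, led by SPARC, and BGLAP stood at 27.3 FPKM in HMPOS against 676 FPKM in POS cells. COL1A1, SPP1, SPARC and PHEX were the others past a fold of 2 there, beside 19.1%, with log2 ratios of -1.49, -2.99, -1.32 and -2.48. PHEX was below 1 FPKM in every group. The osteoblast genes thus differed in the direction of the abundant small leucine-rich members DCN, LUM, BGN and OGN, except for DCN between the parental lines, and their part in those levels was not tested.

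Of 7 cartilage genes, SOX9 was listed in D17, MATN3 and COMP in HMPOS, and COL2A1 and SOX9 between the parental lines, while COL9A1, COL11A2 and CNMD were in none. Their sums were 2.16 and 1.24 FPKM in extravasated and parental D17 cells and 3.19 and 1.60 FPKM in extravasated and parental HMPOS cells, where ACAN was higher too. COMP had a log2 ratio of 1.04 there, which became 0.46 after the table median was subtracted. For HMPOS against POS the sums were 13.5 FPKM in HMPOS and 19.0 FPKM in POS cells, led by SOX9, and COL2A1 had a log2 ratio of 2.24 where that of ACAN was -3.11. Of 9 endothelium genes, KDR alone was listed, between the parental lines, at 0.146 FPKM in HMPOS against 1.73 FPKM in POS cells, and none of the 8 leukocyte genes was listed in any table. Of 7 epithelium genes, EPCAM and CDH1 were listed in D17, both higher past a fold of 2, beside 18.3% of all listed genes. Their sums were 3.19 FPKM after extravasation against 0.510 FPKM in the parental line, led by EPCAM. Their log2 ratios of 2.00 and 4.23 rest on parental levels near 0, at 0.431 FPKM for EPCAM and 0.0783 FPKM for CDH1. CDH1 alone was listed in the other tables, at 3.04 FPKM after extravasation against 1.49 FPKM in the parental HMPOS line and at 4.30 FPKM in POS cells. The part of other cell types in the members' levels was not tested.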

How the data were processed

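RNA was sequenced from 15 libraries in 5 groups, with 3 libraries each. The submitters' processing notes name Trimmomatic 0.38, TopHat2, Cufflinks, Cuffdiff and the build CanFam3.1, with no order, whereas the article describes STAR, voom and limma. The article and the labels also name different RNA and library kits. The authors deposited 3 tables with 1 FPKM value per group, pooled over its libraries, so depth and replicate spread are unknown here. The tables also hold the authors' own log2 ratio, taken as norm over meta or as POS over HMPOS, test statistic, p-value, q-value and call, which were not used. Log2 ratios were computed from the group values with no pseudocount. A member counted as past the threshold at a fold above 2. Shares over all listed genes were counted in the same way, and a 0 in either group gave a direction but no ratio (8 genes for D17, 3 for HMPOS, 28 for the parental lines). The alternatives were a fold threshold of 1.5, any fold, pseudocounts of 0.1 and 1 FPKM, a minimum of 1 FPKM in the higher group, centring on the table median and the HMPOS parental value of the other table. An exchange of the groups called meta and norm was added after seeing the data. The scripts for ratios and counts were checked on inputs with known answers.

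Every listed member was named. From the lists of other pathway genes, those past a fold of 2 were named, or the largest where a list had none, together with every listed gene within 2 Mb of VCAN and listed genes beside member pairs within 1 Mb. Markers of osteoblasts, cartilage, endothelium, leukocytes, epithelium and cell division were read as lists. Some results for lysosomal enzymes are not reported here. The members and lists were chosen with earlier results of these data known. Symbols that had been turned into dates (5 in D17 and 1 in HMPOS) were not named. Python 3.11.15, numpy 2.4.6, pandas 2.3.3 and matplotlib 3.10.9 were used.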

Additional observations from a re-analysis of the deposited data

How the results depend on the processing

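Over the alternatives fixed at the start, 18 of 30 counts of members past the threshold lay within 1.5 times the main count and 12 did not. In HMPOS against POS the balance between higher and lower members turned after centring. In D17 the 6 higher members became 11 at a fold of 1.5 and 14 at any fold, and the 2 lower members became 4 at any fold and 1 with a pseudocount of 1 FPKM. In HMPOS the 4 higher members became 7 at a fold of 1.5 and 11 at any fold, and the 4 lower members became 2 with a pseudocount of 1 FPKM. In HMPOS against POS the 7 higher members became 12 at a fold of 1.5, 15 at any fold, 3 with a pseudocount of 1 FPKM and 11 after centring on the median, and the 10 lower members became 18 at any fold and 8 after centring. A lower threshold takes in more genes, and a pseudocount shrinks the ratios of genes near 0. The ratios of VCAN and HAPLN1 kept their direction in all 19 settings that kept the reading of the group names. Most of these settings could not have turned a direction. A pseudocount added to both levels cannot change a sign, and the parental HMPOS values differed between tables by at most 0.232%. Centring moved each of these ratios away from 0 except that of VCAN in HMPOS against POS, which went from -1.65 to -1.34. With meta and norm exchanged, an alternative added after seeing the data, VCAN had log2 ratios of 0.44 in D17 and 1.08 in HMPOS and HAPLN1 one of 2.81 in HMPOS. The exchange left 2 higher and 6 lower members past a fold of 2 in D17, and 4 of each in HMPOS as before. Without the exchange the log2 ratio of VCAN ranged from -0.83 to -0.42 in D17, from -1.67 to -0.92 in HMPOS and from -1.65 to -1.34 in HMPOS against POS. That of HAPLN1 ranged from -3.39 to -2.25 in HMPOS and from 3.49 to 6.87 in HMPOS against POS, and it was not listed for D17. No paired analysis was possible because each group has 1 pooled value, and for the same reason no replicate could be left out. The depth is unknown, so ratios that rest on levels below 1 FPKM have an unknown counting error.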

Other observations

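Among lysosomal enzymes that degrade glycosaminoglycans, none of them a member, GUSB, the beta-glucuronidase that acts on hyaluronan and chondroitin fragments, stood at 141 FPKM in extravasated D17 cells against 69.1 FPKM in the parental line. NAGLU and SGSH, which degrade heparan sulfate, were also past a fold of 2 there, beside 18.3% of all listed genes. Their log2 ratios were 1.36 and 1.503. After the D17 table median was subtracted, GUSB at 0.64 and NAGLU at 0.97 were within a fold of 2, whereas SGSH at 1.12 was not. In HMPOS, GUSB and SGSH had log2 ratios of 0.43 and 0.74, and GUSB turned lower after the table median was subtracted. IDUA and GALNS were lower in parental HMPOS than in POS cells past a fold of 2, beside 19.1% of all listed genes. Their log2 ratios were -1.55 and -1.20, and that of GALNS became -0.89 after the table median was subtracted. The tables hold listed genes alone, so an enzyme that is not listed has no level here.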
